A study of Mus musculus with 64 samples.

Results

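Polyadenylated histone variant genes were followed across mouse embryonic stem cells in which single subunits of RNA polymerase II (Pol II) could be degraded. The 7 genes are H3f3a, H3f3b, H2afz, H2afv, H2afx, H2afy and H1f0, chosen by their GENCODE symbol from the 55335 genes of the count table. V6.5 embryonic stem cells carried a degron, a tag that lets the auxin indole-3-acetic acid (IAA) trigger destruction of the tagged protein, on 1 of the 12 Pol II subunits, which names the line (RPB1, RPB2 and so on to RPB12). Wild-type (WT) cells had the same 2 treatments. Each of these 13 lines was sequenced after 12 h of 500 µM IAA and untreated, which gave 52 libraries in 26 groups of 2. A further 12 libraries hold RPB1, RPB3 and RPB6 at 1 h and at 0 h of IAA, again 2 per group. All groups had CHIR99021 and PD0325901 in the medium, inhibitors of GSK3 and MEK. Doxycycline, which induces the auxin receptor OsTir1, was given for 12 h before IAA or its omission. The labels do not say whether WT cells carry OsTir1, nor how many clones a line holds. Whether the pair of libraries in a group came from separate cultures is not said either. The p-values thus reflect a library-to-library spread that may be technical.

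Most histones are made in S phase from replication-dependent genes, whose messages end in a conserved stem-loop in place of a poly(A) tail. Replacement variants are made throughout the cell cycle, mostly from spliced and polyadenylated messages. H3f3a and H3f3b encode the same protein, H3.3, which HIRA, DAXX and ATRX place at transcribed genes, telomeres and repeats. H2afz and H2afv encode the 2 forms of H2A.Z, a variant at promoters that SRCAP and EP400 complexes insert. H2afx encodes H2A.X, which is phosphorylated beside DNA breaks. H2afy encodes macroH2A1, known for the inactive X chromosome and for silent genes, and H1f0 encodes the linker histone H1.0, which accumulates in cells that stop dividing or differentiate.

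The ends of the annotated messages were searched for a stem-loop and a poly(A) signal. They are printed because stem-loop and poly(A) signal decide how a histone message ends. A stem-loop, searched on the sense strand after the stop codon as GG, any 3 bases, TTTT, any base, AG, any 2 bases and CC, was found in 44 of 67 replication-dependent histone genes (65.7%), or in 44 of the 51 with over 40 annotated bases after the stop (86.3%), and in 91 of all 21899 protein-coding genes (0.416%). Among the 7 variant genes H2afx alone had one, 47 bases after its stop codon. The stem-loops of H2afx and of 3 replication-dependent genes are given here with the stem and loop in capitals, read from GENCODE M21 transcripts on the sense strand:
H2afx: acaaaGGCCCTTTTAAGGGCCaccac
Hist1h2ae: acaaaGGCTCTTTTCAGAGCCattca
Hist1h4d: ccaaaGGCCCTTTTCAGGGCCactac
Hist2h2ac: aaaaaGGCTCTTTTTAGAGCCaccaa

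A poly(A) signal, AATAAA or ATTAAA in the last 40 bases of an annotated transcript, was found for 5 of the 7 genes, H2afx included. For H3f3b and H2afy none of the annotated ends held these letters in that window. The signal stood in 1 of 3 transcript ends of H3f3a, 2 of 4 of H2afz and 1 of 2 of H2afv. Some replication-dependent genes held it too, Hist1h2ae among them, so it does not by itself mark the group. For the 5 variant genes with a signal, 30 of the last 40 bases follow, with the signal in capitals (a stretch need not reach the transcript end):
H3f3a: aatttgaaaaatAATAAAagtaccaataga
H2afz: ctctgcttactaATTAAAcagtgcatctgt
H2afv: aaatgcacagaAATAAAgaaactagcacta
H2afx: attttATTAAAggatcgtttggttttgttt
H1f0: ttaaaactttaaAATAAAactggaaaggaa

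On mm10 with GENCODE M21, H3f3a (ENSMUSG00000060743) lies at chr1:180800832-180813943 on the minus strand and H3f3b (ENSMUSG00000016559) at chr11:116021912-116027962, also minus. H2afz (ENSMUSG00000037894) lies at chr3:137864487-137866922, plus, and H2afv (ENSMUSG00000041126) at chr11:6427229-6444443, minus. The unspliced genes H2afx (ENSMUSG00000049932, chr9:44334694-44336077) and H1f0 (ENSMUSG00000096210, chr15:79028450-79030504) are both on the plus strand, each with 1 exon. H2afy (ENSMUSG00000015937) spans chr13:56073619-56136361, minus, in 13 exon blocks. The coding sequences of H3f3a and H3f3b share 316 of 411 bases (76.9%), and those of H2afz and H2afv share 306 of 387 (79.1%).

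RefSeq promoters (GRCm38.p6) were matched for 6 of the 7 genes. CCAAT was counted on both strands (CCAAT or ATTGG) in the 250 bases before the start. It stood 4 times in H3f3b and H2afv, 2 times in H2afz, once in H3f3a and not at all in H2afy and H1f0. Of 32851 RefSeq promoters of this length, 33.8% held at least 1, 10.1% at least 2 and 0.84% at least 4. The counts depend on the start chosen. Of the 250 bases, 214 lay within GENCODE M21 exons of the same gene for H3f3b, 99 for H3f3a and 81 for H2afy. The H1f0 stretch ends at 79028211, short of the M21 start at 79028450. Only 3 promoters are printed, those of the H2A.Z pair, which rose in RPB2 and RPB6 on the TMM scale, and of H1f0, which fell there. In other lines H2afz and H2afv moved apart. Whether CCAAT relates to any response was not tested. Each covers 250 bases before the start, 5′ to 3′ on the gene's strand, with CCAAT or ATTGG in capitals:
H2afz (chr3:137864237-137864486, plus): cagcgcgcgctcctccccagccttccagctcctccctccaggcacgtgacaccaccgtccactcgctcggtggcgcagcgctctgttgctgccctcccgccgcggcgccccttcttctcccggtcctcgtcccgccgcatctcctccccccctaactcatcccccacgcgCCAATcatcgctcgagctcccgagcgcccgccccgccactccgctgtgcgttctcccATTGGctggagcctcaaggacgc
H2afv (chr11:6444444-6444693, minus): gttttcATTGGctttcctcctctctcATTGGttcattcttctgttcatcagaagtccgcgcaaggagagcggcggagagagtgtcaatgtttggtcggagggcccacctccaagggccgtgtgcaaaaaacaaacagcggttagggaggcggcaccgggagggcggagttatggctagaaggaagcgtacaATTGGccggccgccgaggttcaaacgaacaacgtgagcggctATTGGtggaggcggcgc
H1f0 (chr15:79027962-79028211, plus): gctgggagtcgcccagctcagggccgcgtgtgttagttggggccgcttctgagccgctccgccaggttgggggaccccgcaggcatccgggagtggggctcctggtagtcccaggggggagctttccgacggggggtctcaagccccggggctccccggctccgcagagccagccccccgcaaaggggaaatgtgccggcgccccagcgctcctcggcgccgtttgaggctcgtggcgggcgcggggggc

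Libraries of the 12 h set held 3399838 to 7164928 counts and those of the 0 h and 1 h set 8598431 to 13281252. All 7 genes passed the filter on low counts in both sets. Summed ES cell markers reached 3378 to 5602 CPM in 12 h IAA libraries and 4549 to 6342 CPM in untreated ones, while 4 of 6 embryonic fibroblast markers (Col1a2, Col3a1, Postn, Lum) had medians below 0.5 CPM and the list summed to at most 24.2 CPM. The other 2 fibroblast markers moved in some lines on IAA, Col1a1 by 3.73 in RPB1, 1.56 in RPB6 and −2.45 in RPB9, and Thy1 by −0.91 in RPB1, 1.22 in RPB2, 1.16 in RPB6 and 1.05 in RPB8 on the log2 scale. Primitive endoderm markers summed to at most 24.8 CPM, and trophectoderm markers to 49.5 to 157 CPM on IAA and 91.2 to 157 CPM untreated. Of the 8 ES cell markers 6 fell and 2 rose in RPB2 and in RPB6. Among all genes, 34% fell and 27.9% rose in RPB2, and 33.4% fell and 27.3% rose in RPB6. The part of these marker changes in the results was not tested. The 2 libraries of untreated RPB7 differed most from each other (chi-square of 14.7 per degree of freedom), those of RPB2, RPB5 and RPB11 untreated, RPB3 on 12 h IAA and RPB3 at 1 h had 5.73 to 9.16, and all other groups at most 3.76. The degrons act on protein, so subunit mRNA does not check the labels. At 0 h, RPB6 stood apart from RPB1, with 11.8% of 11585 genes over 2-fold apart (r = 0.951), against 1.28% for RPB3 and RPB1 (r = 0.987). Near-identical copies held at most 3.73% of the counts of H3f3a plus copies (15 pseudogenes), 9.9% for H2afz (among them part of Tmcc1) and 0.208% for H3f3b, and how the authors counted reads with several matches was not stated. The genes Gm44335, Gm49544 and Gm47071 overlap H2afx, H1f0 and H2afy on the opposite strand. In the 12 h set they held 22.9 to 31.6%, 9.68 to 34.1% and 21.1 to 27.7% of the counts of each pair, and in the 0 h and 1 h set 0%, at most 0.645% and at most 3.42%. No source states the strand setting, so these 3 genes are compared only within a set.

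The levels of the 7 genes were first set against each other per kb of exon, as shares of their summed level, in untreated WT cells (mean ± SD, n = 2). H2afz made up 29.3 ± 0.831%, H3f3b 23.4 ± 0.433% and H2afx 22.9 ± 1.33%. H3f3b and H2afx did not differ beyond their spread, and the other neighbours in the order did. The order rests on exon length: without it H3f3b came first (30.1%), then H2afz (22.5%), H3f3a (17.2%) and H2afx (13.7%). H3f3a followed with 11.4 ± 0.419%, H2afv with 7.77 ± 0.289%, H2afy with 3.1 ± 0.27% and H1f0 with 2.08 ± 0.0721%. H2afz thus had a level per kb above H2afv, and H3f3b one above H3f3a.

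Changes after 12 h of IAA were tested for each line against its own untreated libraries with edgeR's quasi-likelihood test, adjusted by Benjamini-Hochberg over all 17928 genes at a threshold of 0.05. Of 84 changes (7 genes in 12 degron lines), 29 were higher, 18 were lower and 37 were not called. Scaled to mitochondrial mRNAs, 7 were higher and 24 lower, the opposite balance. In bulk libraries, fewer cells of a kind and less RNA per cell cannot be told apart. On the TMM scale, H3f3a rose in 5 lines and fell in 1, H3f3b rose in 6 and fell in 1, and H2afv rose in 3. H2afz rose in 2 lines and fell in 5, H2afx rose in 2 and fell in 3, and H2afy rose in 6 and fell in 3. H1f0 rose in 5 lines and fell in 5. Many genes changed in most lines, so each count is read against the share of all genes called. RPB6 had 7 of 7 variant genes called, 6 higher and 1 lower, against 60.7% of all genes, 27.3% higher and 33.4% lower. RPB2 had 5 higher and 1 lower, against 27.9% and 34% of all genes (61.9% in either direction). RPB10 had 3 higher and 3 lower, against 18.2% and 21.2% (39.4%). RPB1 had 2 higher and 3 lower, against 35.8% and 30.5% (66.3%), and RPB8 had 4 higher and 1 lower, against 31.5% and 30.2% (61.7%). RPB3 had 1 higher and 3 lower, against 24.4% and 23.3% (47.7%), RPB5 2 and 2, against 31% and 28.1% (59.1%), and RPB7 1 and 3, against 20.2% and 21.1% (41.3%). RPB11 had 2 higher and 1 lower, against 10.6% and 13.1% (23.7%). A single gene was higher and none lower in RPB4, against 1.13% and 0.948% (2.08%), in RPB9, against 16.8% and 18% (34.8%), and in RPB12, against 2.14% and 2.65% (4.79%). WT had 2 lower and none higher, against 0.842% and 0.803% (1.65%). The share of variant genes called was below that of all genes in RPB5 and RPB9 and above it in WT and the 10 other degron lines. A single gene is 14.3% of the 7. The gap was smaller than that in RPB1 (71.4% against 66.3%), RPB3 (57.1% against 47.7%), RPB5 (57.1% against 59.1%) and RPB8 (71.4% against 61.7%). In RPB4 and RPB12, with 1 call each, it was smaller too. These 6 lines are thus not read as differing from all genes. The calls in RPB4, RPB12 and WT were lost in at least 1 fit without a replicate. Without 1 or another replicate number these 84 changes gave 36 to 51 calls, and 35 of the 47 were called in all 4 such fits.

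**Figure D1:**
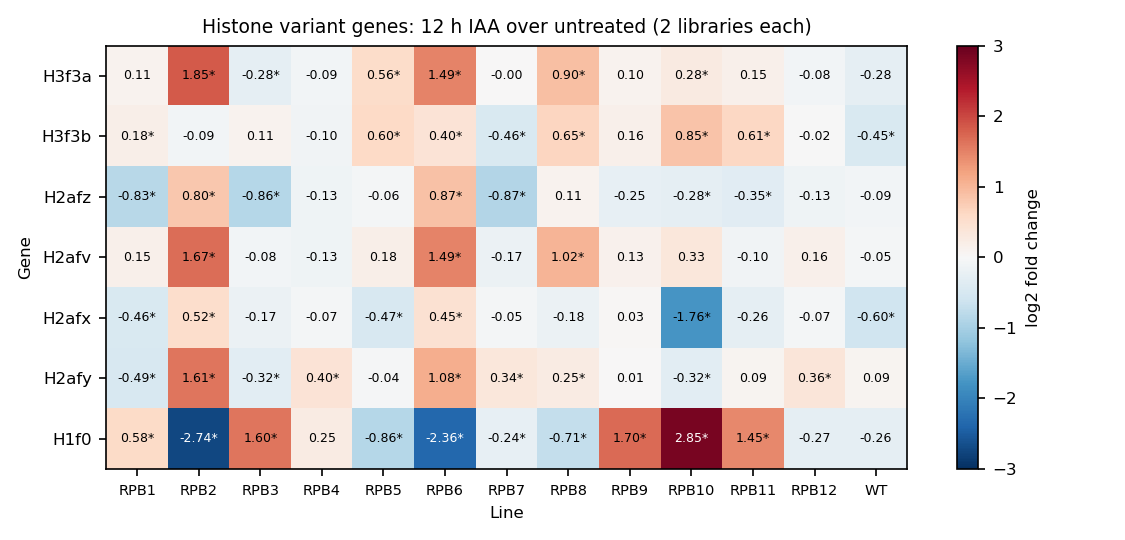
Log2 fold change of each histone variant gene (rows) after 12 h of IAA over untreated, in each line (columns), 2 libraries each; red is higher and blue lower, and an asterisk marks an adjusted p below 0.05. H1f0 is lowest in RPB2 and RPB6 and highest in RPB10. Scaled to mitochondrial mRNAs, the rises in RPB2, RPB6 and RPB8 turn negative, and not all of these negative changes are called.

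Scaling decides the sign of several of these changes. The values above use TMM, which sets the middle of the genes near 0 (medians of all genes −0.19 in RPB2 and −0.13 in RPB6). Mitochondrial mRNAs, which a separate polymerase makes, took 3.44 and 3.25% of counts in RPB2 cells on IAA, against 1.24 and 1.37% untreated. In RPB6 they took 2.73 and 2.66% on IAA, against 1.1 and 1.04% untreated. Scaled to these mRNAs, the median of all genes fell by 2.32 in RPB2, by 2.08 in RPB6 and by 1.43 in RPB8 on the log2 scale. Rises of variant messages in those 3 lines are therefore rises relative to other messages.

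H1f0, the linker histone gene, had the widest range of the 7 genes. In RPB10 it reached 227 and 238 CPM on IAA, against 31.2 and 33.3 CPM untreated. All 4 values lie far apart by group, a 7.21-fold rise (log2 2.85, SE 0.1, adjusted p = 4.04e-26). In RPB2 it had 13.3 and 12.6 CPM on IAA, against 88.7 and 85 CPM untreated, and in RPB6 8.94 and 9.45 CPM on IAA, against 42.8 and 51.7 CPM untreated. These are falls of 6.69-fold in RPB2 (log2 −2.74, SE 0.16, adjusted p = 3.39e-20) and 5.14-fold in RPB6 (log2 −2.36, SE 0.16, adjusted p = 4.76e-17). No IAA library of either line reached an untreated one.

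The gene also rose in RPB3, to 185 and 193 CPM on IAA, against 57.4 and 66.8 CPM untreated, in RPB9, to 166 and 164 CPM, against 48.2 and 53.4 CPM untreated, and in RPB11, to 214 and 218 CPM, against 72.3 and 85.1 CPM untreated. The log2 changes were 1.60 in RPB3, 1.70 in RPB9 and 1.45 in RPB11. H1f0 was the only one of the 7 genes called in RPB9. In RPB1 it rose by 0.58, and scaled to mitochondrial mRNAs this was 0.01 (adjusted p = 0.968, against 4.41e-09 to 0.968 over all alternatives). It fell in RPB5 (−0.86), RPB8 (−0.71) and RPB7 (−0.24), while RPB4 (0.25), RPB12 (−0.27) and WT (−0.26) were not called. The call in RPB7 was lost without a replicate (adjusted p 0.000858 to 0.304 over the alternatives).

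Against the response of WT, H1f0 responded differently in 9 of 12 lines, 5 higher and 4 lower. Of these calls, those in RPB5 (adjusted p 0.000432 to 0.069 over the alternatives) and RPB8 (up to 0.126) were lost without a replicate, and that in RPB1 on the mitochondrial scale (up to 0.526). The largest such differences were 3.10 in RPB10 and −2.49 in RPB2. Scaled to mitochondrial mRNAs, the change against untreated cells kept its sign in RPB2, RPB3, RPB5, RPB6, RPB8, RPB9, RPB10 and RPB11, with −4.95 in RPB2, −4.32 in RPB6 and 2.59 in RPB10. Adding the counts of the overlapping Gm49544 moved these values little. Per total counts, the log2 ratio of IAA to untreated was −3.60 for H1f0 alone and −3.61 with Gm49544 added in RPB2, and 2.94 alone and 2.88 together in RPB10.

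**Figure D2:**
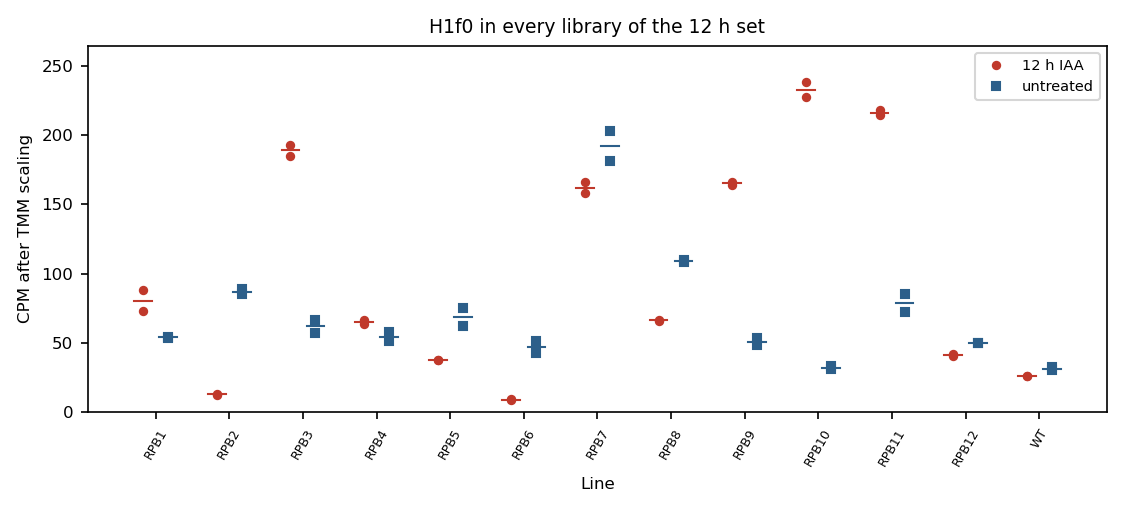
H1f0 level (CPM after TMM scaling, linear axis from 0) in every library of the 12 h set, with red circles for 12 h IAA, blue squares for untreated and short lines for the means of 2 libraries. RPB10 has 227 and 238 CPM on IAA, against 31.2 and 33.3 untreated, while RPB2 and RPB6 fall below 14 CPM on IAA.

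The genes for H3.3 responded unequally in some lines and alike in others. H3f3a had 1465 and 1507 CPM in RPB2 on IAA, against 384 and 442 CPM untreated, a 3.6-fold rise relative to other genes (log2 1.85, SE 0.088, adjusted p = 5.08e-23) that turned to −0.36 on the mitochondrial scale. In RPB6 it had 1062 and 1050 CPM on IAA, against 387 and 364 CPM untreated (log2 1.49, adjusted p = 1.22e-19; −0.47 on the mitochondrial scale). H3f3b in RPB2 had 630 and 569 CPM on IAA, against 650 and 626 CPM untreated, and was not called (log2 −0.09, adjusted p = 0.278). On the TMM scale the IAA and untreated libraries of RPB2 thus separate fully for H3f3a and overlap for H3f3b. On other scales H3f3b fell in RPB2, by 0.95 on total counts (adjusted p = 5.18e-17) and by 2.31 on the mitochondrial scale (adjusted p = 8.35e-14). Scaled by total counts alone it had 340 and 307 CPM on IAA, against 642 and 605 CPM untreated.

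RPB10 had the opposite balance. H3f3b reached 772 and 767 CPM on IAA, against 415 and 438 CPM untreated (log2 0.85, SE 0.07, adjusted p = 8.01e-14), and H3f3a 482 and 494 CPM, against 394 and 408 CPM untreated (log2 0.28, adjusted p = 0.00681). The H3f3b call was lost on the mitochondrial scale (log2 0.59, adjusted p = 0.114). The H3f3a call was lost without a replicate (adjusted p up to 0.108) and on the mitochondrial scale (log2 0.03), with adjusted p of 4.95e-10 to 0.976 over the alternatives. Both genes rose in RPB5, H3f3b by 0.60 and H3f3a by 0.56 (0.06 and 0.01 on the mitochondrial scale). Both also rose in RPB8, H3f3b by 0.65 and H3f3a by 0.90 (−0.86 and −0.62 on the mitochondrial scale). In RPB6 H3f3b rose by 0.40 (−1.56 on the mitochondrial scale), less than H3f3a. In RPB11 H3f3b rose by 0.61, with 0.72 on the mitochondrial scale, where it was not called (adjusted p = 0.15). Its rise in RPB1 (0.18) was lost without a replicate. H3f3b fell in RPB7 (−0.46) and in WT (−0.45).

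A ratio of both genes within a library does not depend on scaling. The ratio of H3f3a to H3f3b counts averaged 2.48 in RPB2 on IAA and 0.645 untreated, and 1.66 in RPB6 on IAA and 0.781 untreated. In every untreated library of the 13 lines H3f3b had more counts than H3f3a, and only the IAA libraries of RPB2 and RPB6 had more of H3f3a. In RPB10 the ratio was 0.634 on IAA and 0.94 untreated, and in WT 0.643 on IAA and 0.572 untreated. In RPB1, RPB4, RPB5 and RPB12 the ratio overlapped between IAA and untreated libraries. The ratios were not tested.

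The H2A.Z genes moved together in some lines and apart in others. H2afz reached 1545 and 1583 CPM in RPB2 on IAA, against 902 and 894 CPM untreated (log2 0.80, SE 0.11, adjusted p = 6.92e-09), a rise that was −0.06 on total counts and −1.41 on the mitochondrial scale. In RPB1 it had 388 and 434 CPM on IAA, against 745 and 713 CPM untreated, a 1.77-fold fall (log2 −0.83, adjusted p = 6.45e-09). It also fell in RPB3 (−0.86), RPB7 (−0.87), RPB10 (−0.28) and RPB11 (−0.35). On the mitochondrial scale the fall in RPB3 was gone (−0.02, adjusted p = 0.958), but the 2 IAA libraries of RPB3 held unequal mitochondrial mRNA (0.534 and 1.72%). RPB10 and RPB11 lost their calls without a replicate (adjusted p up to 0.21 in RPB10 and 0.204 in RPB11). The untreated RPB11 libraries had 519 and 666 CPM, a spread close to the change itself.

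H2afv, the minor H2A.Z gene, had 361 and 400 CPM in RPB2 on IAA, against 91.1 and 147 CPM untreated (log2 1.67, SE 0.14, adjusted p = 3.68e-14; −0.52 on the mitochondrial scale). It had 254 and 248 CPM in RPB6 on IAA, against 90.8 and 87.4 CPM untreated (log2 1.49; −0.47 on the mitochondrial scale), and 195 and 183 CPM in RPB8 on IAA, against 94.9 and 91.5 CPM untreated (log2 1.02; −0.49 on the mitochondrial scale). The groups do not overlap in any of these 3 lines. In the other lines H2afv was not called, with log2 changes of −0.17 to 0.33.

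Within libraries, the log2 ratio of H2afz to H2afv counts was lower in both IAA libraries than in both untreated ones in 11 of 12 degron lines. It had 2.14 and 1.94 in RPB1 on IAA, against 3.04 and 2.98 untreated, the widest difference (−0.96). In RPB8 it had 1.70 and 1.78 on IAA, against 2.71 and 2.59 untreated. RPB4 overlapped, with 2.53 and 2.61 on IAA and 2.62 and 2.51 untreated. In WT the ratio had 1.98 and 2.02 on IAA and 2.05 and 2.03 untreated, a difference of −0.04 in which the groups did not overlap either. The lower ratio was thus shared by lines in which H2afz rose and lines in which it fell.

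**Figure D3:**
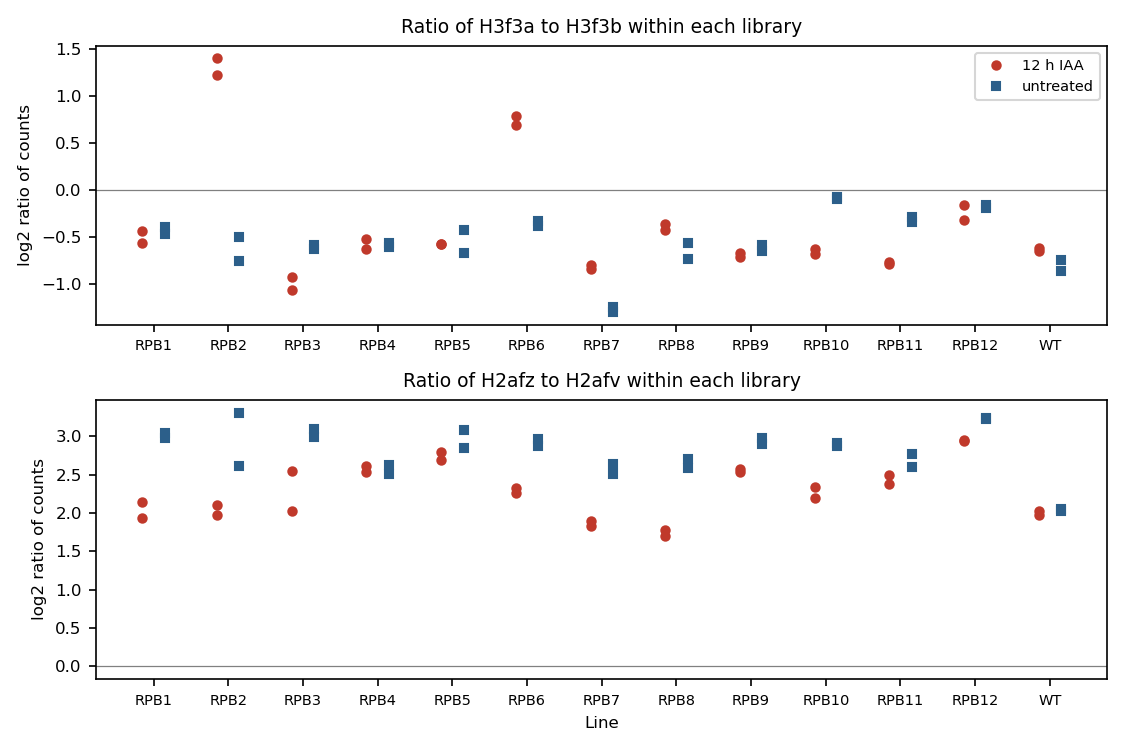
Log2 ratio of counts within each library of the 12 h set, H3f3a to H3f3b in the upper panel and H2afz to H2afv in the lower, with red circles for 12 h IAA and blue squares for untreated (2 libraries each); no scaling enters. The upper ratio passes 0 only in RPB2 and RPB6 on IAA, and the lower ratio falls in both IAA libraries of every degron line but RPB4.

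H2afx, the variant with the stem-loop, fell most in RPB10. It had 60.8 and 63.3 CPM on IAA, against 203 and 219 CPM untreated, a 3.4-fold fall (log2 −1.76, SE 0.13, adjusted p = 9.49e-16). No other library of the 12 h set on IAA had less than 143 CPM, and the fall was −2.02 on the mitochondrial scale. It was larger than the response of WT by −1.16 (SE 0.17, adjusted p = 8.44e-07), although H2afx fell in WT as well, to 165 and 143 CPM on IAA, against 247 and 220 CPM untreated (log2 −0.60, adjusted p = 0.00195). H2afx also fell in RPB1 (−0.46) and RPB5 (−0.47). It rose in RPB2 (0.52; −0.33 on total counts and −1.69 on the mitochondrial scale) and RPB6 (0.45; −0.18 and −1.52 on these scales). With Gm44335 added, the log2 ratio in RPB10 on total counts was −1.65, against −1.67 for H2afx alone.

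In RPB10 cells on IAA, H1f0 thus passed H2afx in the share of the summed level per kb. H1f0 made up 11.9 ± 0.373% on IAA and 1.78 ± 0.0297% untreated (SD, n = 2 each). H2afx made up 4.71 ± 0.119% on IAA and 17.3 ± 0.383% untreated. H3f3b made up 27.2 ± 0.213% on IAA and 16.3 ± 0.12% untreated. These shares were not tested. In RPB2 the share of H1f0 was 0.283 ± 0.0197% on IAA and 3.35 ± 0.242% untreated.

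H2afy, the macroH2A1 gene, had 459 and 490 CPM in RPB2 on IAA, against 144 and 166 CPM untreated (log2 1.61, SE 0.087, adjusted p = 4.37e-21; −0.59 on the mitochondrial scale). It had 411 and 450 CPM in RPB6 on IAA, against 201 and 207 CPM untreated (log2 1.08; −0.89 on the mitochondrial scale). It fell in RPB1 (−0.49), RPB3 (−0.32) and RPB10 (−0.32). In RPB3 it had 0.54 on the mitochondrial scale, where the 2 IAA libraries held 0.534 and 1.72% mitochondrial mRNA. H2afy was the only variant gene called in RPB4 (0.40) and RPB12 (0.36). Of its 9 calls, those in RPB1, RPB2 and RPB6 held without any 1 replicate number, and those in RPB3, RPB4, RPB7, RPB8, RPB10 and RPB12 were lost in at least 1 fit.

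**Figure D4:**
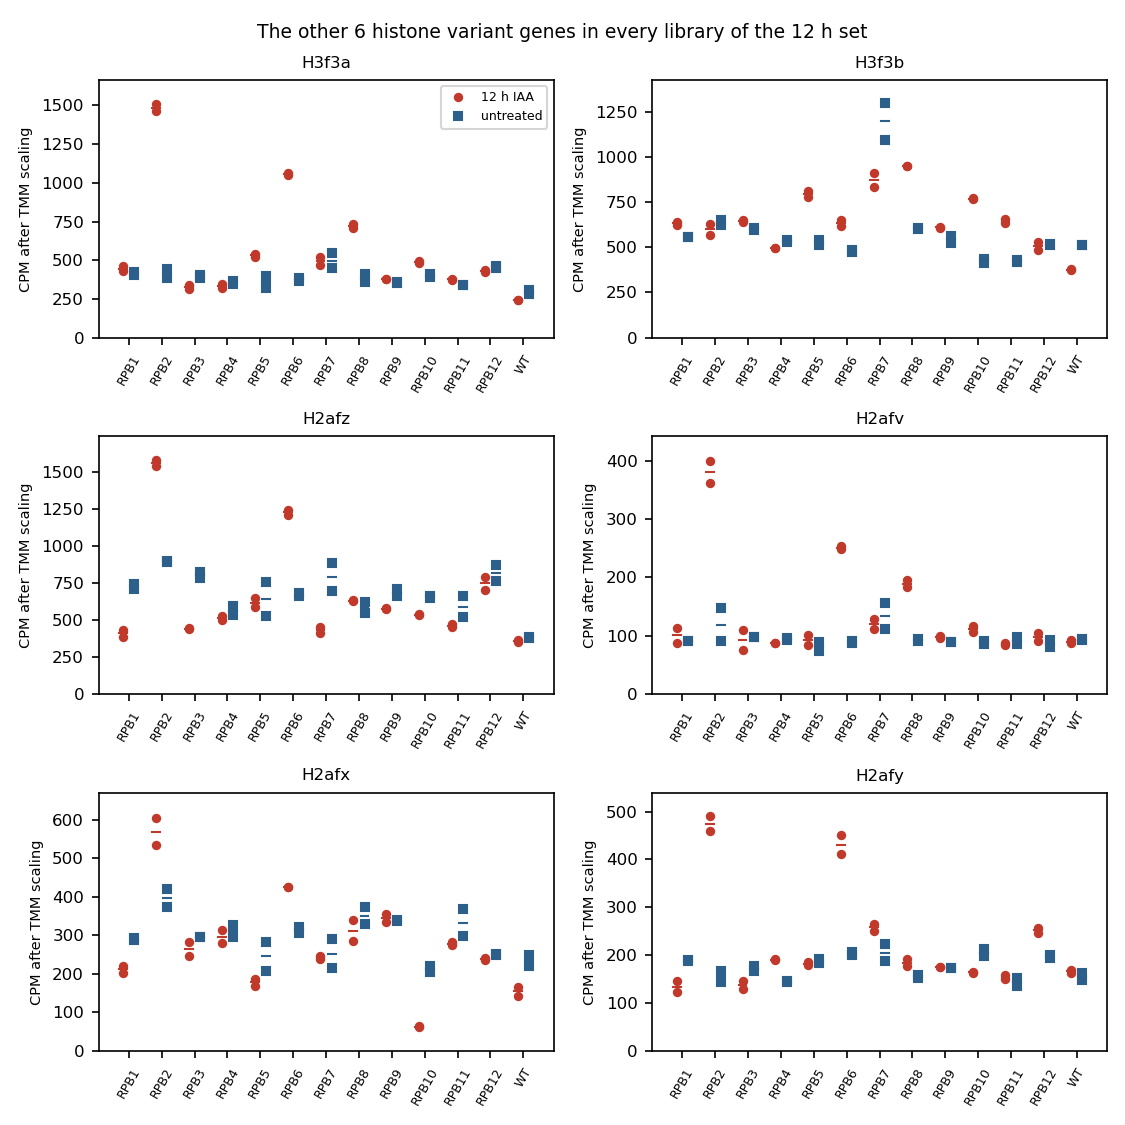
Level of the other 6 histone variant genes (CPM after TMM scaling, linear axes from 0) in every library of the 12 h set, with red circles for 12 h IAA, blue squares for untreated and short lines for means of 2 libraries. H3f3a, H2afz, H2afv and H2afy stand highest in RPB2 and RPB6 on IAA, and H2afx stands lowest in RPB10 on IAA. Scaled to mitochondrial mRNAs, these rises in RPB2 and RPB6 turn negative, called for H2afz and H2afy and not called for H3f3a and H2afv.

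WT cells are the background of the treatment itself. H3f3b fell to 375 and 378 CPM on IAA, against 515 and 512 CPM untreated (log2 −0.45, SE 0.07, adjusted p = 6.53e-05). The falls of H3f3b and H2afx were the only 2 of 7 called there, and neither call held in all fits with a replicate left out (adjusted p up to 0.0716 and 0.335). The responses of the degron lines differed from that of WT in 47 of 84 cases, 36 higher and 11 lower. On the mitochondrial scale they differed in 23, 7 higher and 16 lower. Shares of all genes were counted in either direction here, so they give no background for the balance of higher and lower. The share of all genes with such a difference ran from 0.284% in RPB4 to 55.5% in RPB2, with 49.1% in RPB1, 28.2% in RPB3, 42.3% in RPB5, 54.1% in RPB6 and 25.2% in RPB7. It was 49.5% in RPB8, 18% in RPB9, 25.6% in RPB10, 11.3% in RPB11 and 0.53% in RPB12. All 12 differences share the 4 WT libraries. H3f3b differed in 10 lines, always higher on the TMM scale. On the mitochondrial scale its difference was negative in RPB2 (−1.77), RPB6 (−1.02) and RPB8 (−0.32). Of these 10 calls only that in RPB3 stayed below 0.05 under every alternative fit. Among the others, the highest edgeR adjusted p was 0.805 in RPB1, 0.264 in RPB5 and 0.492 in RPB8. No variant gene differed in RPB4.

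RPB1, the largest subunit, and RPB2 and RPB6 gave unlike responses for the variant genes. In tests of the difference between the responses, all 7 genes were called in RPB2 minus RPB1 (62.6% of all genes) and all 7 in RPB6 minus RPB1 (63.4%). H2afy differed by 2.11 (SE 0.12, adjusted p = 1.64e-19) and H2afz by 1.63 (SE 0.15) in RPB2 minus RPB1, where the median of all genes was −0.61, and these were 0.46 and −0.02 on the mitochondrial scale. H1f0 differed by −3.32 (SE 0.19, adjusted p = 1.04e-19) in RPB2 minus RPB1 and by −2.94 in RPB6 minus RPB1. On the mitochondrial scale 4 of the 14 differences were called and none was higher, and the direction of H1f0 held (−4.97 and −4.34). The smallest differences, those of H3f3b (−0.27 and 0.22), were lost without a replicate (adjusted p up to 0.273 and 0.291).

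At 1 h of IAA, 6 of the 7 genes rose in RPB1, against 11% of all genes higher and 13.9% lower (24.9% in either direction). None was called in RPB3, against 0.00639% and 0.351% (0.358%), or in RPB6, against 0.939% and 0.6% (1.54%). H2afz had 675 and 733 CPM in RPB1 at 1 h, against 492 and 473 CPM at 0 h (log2 0.55, SE 0.087, adjusted p = 0.000303). H3f3a had 375 and 395 CPM at 1 h, against 289 and 269 CPM at 0 h (log2 0.47, SE 0.071, adjusted p = 0.000204). The groups do not overlap for either gene, and these 2 calls alone held in all fits with a replicate left out. H3f3b (0.27), H2afv (0.36), H2afx (0.29) and H1f0 (0.40) also rose, and H2afy had 0.25 (adjusted p = 0.0589). The sign of H2afz in RPB1 was positive at 1 h and negative at 12 h, in libraries of separate sets with separate controls. In RPB6 the log2 changes at 1 h were 0.09 to 0.28 (H3f3a 0.28, adjusted p = 0.0506), and in RPB3 −0.17 to 0.09. Whether RPB1 differed from RPB3 or RPB6 at 1 h was not tested.

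The 0 h libraries of the lines already differed. In RPB6 at 0 h, H3f3b had 1625 and 1568 CPM, against 543 and 540 CPM in RPB1 at 0 h, a 2.95-fold difference (log2 1.56, SE 0.073, adjusted p = 7.91e-12). H2afx had 99.1 and 102 CPM in RPB6, against 210 and 223 CPM in RPB1 (log2 −1.11), and H1f0 103 and 98.7 CPM, against 37.1 and 37.2 CPM (log2 1.44). In that comparison 5 of 7 genes were called (55.9% of all genes), against 3 in RPB3 minus RPB1 (21%) and 6 in RPB6 minus RPB3 (62.2%). H3f3b made up 47.6 ± 1.1% of the summed level per kb in RPB6 at 0 h and 23.5 ± 0.0217% in RPB1 at 0 h (SD, n = 2 each). Untreated RPB6 libraries of the 12 h set had 486 and 475 CPM of H3f3b, and the sets were scaled apart. The ratio of H3f3a to H3f3b counts, which no scaling enters, was 0.203 in RPB6 at 0 h and 0.781 in untreated RPB6. It was 0.515 and 0.74 in RPB1, and 0.69 and 0.656 in RPB3. The cause of the difference between the sets was not tested.

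**Figure D5:**
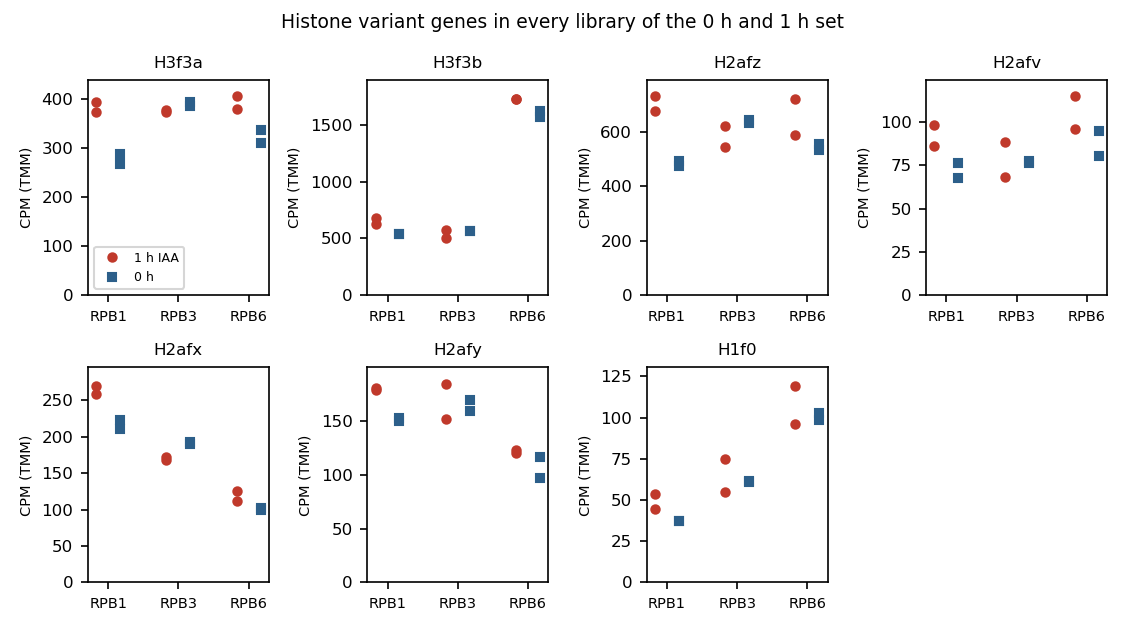
Level of each histone variant gene (CPM after TMM scaling within the set, linear axes from 0) in RPB1, RPB3 and RPB6, with red circles for 1 h and blue squares for 0 h of IAA, 2 libraries each. H3f3a and H2afz are higher at 1 h in RPB1, and RPB6 stands apart from the other lines at both times for H3f3b, H2afx, H2afy and H1f0.

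Untreated degron lines also differed from untreated WT, with 54 of 84 differences higher and 2 lower. The shares of all genes below count either direction, so they give no background for this balance. On the mitochondrial scale 19 were called, all higher. All 12 comparisons share the 2 untreated WT libraries. Of all genes 21.2% were called in RPB1, 40.8% in RPB2, 29.9% in RPB3, 33.1% in RPB4, 17.9% in RPB5, 24.5% in RPB6, 53.7% in RPB7, 20% in RPB8, 15.7% in RPB9, 31.8% in RPB10, 22.8% in RPB11 and 40.2% in RPB12, against 4 to 6 of 7 variant genes per line. H2afz was higher in 12 of 12 lines, by 0.55 (RPB4) to 1.23 (RPB2). It had 519 to 902 CPM in the 24 untreated libraries of the lines, against 382 and 385 CPM in untreated WT, so no library of a line overlapped with WT. Its sign held on total counts and on the mitochondrial scale, with 0.10 in RPB4 as the smallest on the second, where the calls in RPB1, RPB4, RPB5, RPB8 and RPB11 were lost (adjusted p 0.0643 to 0.84). H1f0 was higher in 11 of 12 lines. Its calls in RPB1, RPB4, RPB6, RPB9 and RPB12 were lost under at least 1 alternative (highest edgeR adjusted p 0.0779 in RPB6 to 0.426 in RPB4). H3f3a was higher in 11 of 12, but had −0.18 in RPB4 on the mitochondrial scale. Only its calls in RPB7 and RPB10 stayed below 0.05 under every alternative. RPB7, whose untreated libraries differed most from each other, stood highest, with 181 and 203 CPM of H1f0, against 32.7 and 30.2 CPM in WT (log2 2.61, SE 0.1, adjusted p = 1.34e-24), and 1097 and 1300 CPM of H3f3b, against 515 and 512 CPM in WT (log2 1.22, adjusted p = 2.5e-19). H2afv was higher only in RPB2 (0.36) and RPB7 (0.51), and both calls were lost without a replicate (adjusted p up to 1 and 0.134).

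Genes that work with the variants were counted in lists chosen with earlier results of these data known. Of 8 H3.3 deposition factors, 1 rose and 5 fell in RPB2 (median −0.60, against −0.19 for all genes), and 1 rose and 6 fell in RPB1 (median −0.38, against 0.09). Daxx, the H3.3 chaperone of repeats and telomeres, fell by 2.24 in RPB2 on the log2 scale, and Atrx, its partner, fell by 1.72 in RPB1 and by 1.60 in RPB10. Of 17 H2A.Z exchange factors, 2 rose and 10 fell in RPB1 (median −0.90). In RPB2 7 rose and 8 fell, and in RPB6 8 rose and 7 fell. The counts of both lists are read against the shares of all genes called. RPB1 had 35.8% of all genes higher and 30.5% lower. For RPB2 these shares were 27.9% higher and 34% lower, and for RPB6 27.3% higher and 33.4% lower. Kat5, the acetyltransferase of the TIP60 complex, fell by 1.81 in RPB1 and by 2.71 in RPB2, while Ruvbl2, an ATPase of these complexes, rose by 1.59 in RPB2 on the TMM scale.

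Of 10 general histone chaperones, 7 rose and 2 fell in RPB2 and 8 rose and 2 fell in RPB6 on the TMM scale, Nap1l1 by 1.87 and 1.76. Of all genes, 27.9% rose and 34% fell in RPB2, and 27.3% rose and 33.4% fell in RPB6. All 6 factors of histone message 3′ ends fell in both lines (median −2.87 in RPB2 and −3.0 in RPB6). Slbp, which binds the stem-loop, fell by 2.09 in RPB2, and Npat, the coactivator of replication-dependent histone genes, fell by 4.08 in RPB6. Of the 8 H2AX kinases and readers, 5 fell and none rose in RPB2, and in RPB10 2 rose and 3 fell, among them the kinase gene Prkdc (−1.81). In RPB10 18.2% of all genes rose and 21.2% fell.

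Replication-dependent histones were counted where reads reached a poly(A) library. Of 67 genes, 26 were tested in the 12 h set, where 23 rose in RPB6 and 15 in RPB2 on the TMM scale and none fell. Of all genes, 27.3% rose and 33.4% fell in RPB6, and 27.9% rose and 34% fell in RPB2. The filter keeps a gene with enough counts in as few as 2 libraries. Genes could thus enter through IAA libraries in which they were high, and such genes could hardly be called lower. Their summed level was 99.7 and 109 CPM of all counts in RPB6 on IAA, against 30.2 and 37.9 CPM untreated. Among 4 tested genes of the list of other variants, all 4 rose in RPB2 and in RPB6 on the TMM scale, H2afj by 1.30 and 1.14. On that scale H1f0 fell in both lines. No tested gene of these 2 lists did, an outcome that the filter may partly set.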

How the data were processed

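Raw counts of 55335 mouse genes, as the authors deposited them in 1 table, were the only measurement used. The submitters' processing notes list featureCounts, STAR, Bowtie2, cutadapt 1.18, SAMtools, DESeq2 and deepTools, and the builds dm6 and mm10, without saying what each did. Neither the strand setting nor the counting of reads that match several places was stated there. The labels' protocols name poly(A) libraries for the 12 h samples only, 10% Drosophila S2 cells as a spike-in, and doxycycline at 2 µg/ml (1 µg/ml in the series text). Fly counts were not analysed here. Names tied 64 columns to samples, and the remaining 4 were not used.

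The 12 h set (52 libraries, 17928 genes) and the 0 h and 1 h set (12 libraries, 15658 genes) were fitted apart with edgeR 4.0.16 in R 4.3.3 (TMM, filterByExpr, quasi-likelihood F-test, two-sided, Benjamini-Hochberg over all genes, threshold 0.05), with 1 coefficient per group and 26 and 6 residual degrees of freedom. Alternatives were RLE and total-count scaling, scaling to 13 mitochondrial mRNAs, DESeq2 1.42.0, no filter, each line alone, a replicate block, leaving out each replicate number, and a threshold of 0.01. Levels are TMM-scaled CPM unless said to be of all counts. Copies were found with blastn 2.17.0 (at least 95% identity over 200 bases). Tables were made with pandas 2.3.3 and figures with matplotlib 3.10.9. The 7 genes and all lists were chosen with earlier results of these data known. All 7 genes were named throughout. From a related list, up to 3 called genes per comparison with the smallest adjusted p could be named, and for each variant gene the 3 genes with the most similar changes.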

Additional observations from a re-analysis of the deposited data

Results flagged for a closer look

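The responses below differed between lines by the interaction test of edgeR (adjusted p below 0.05 over all 17928 genes). Each value is the log2 fold change of a degron line after 12 h of IAA minus that of WT, or of RPB2 or RPB6 minus that of RPB1, and 2 libraries per group enter each response. Signs that turn with the scaling are given with the processing. With a replicate number left out, 34 of the 47 differences from WT and 12 of the 14 from RPB1 were called in every fit. Those lost from WT were H3f3a in RPB1, RPB9 and RPB11, H3f3b in RPB2 and RPB12, H2afx in RPB3, RPB7, RPB8 and RPB9, H2afy in RPB3 and RPB10, and H1f0 in RPB5 and RPB8. Those lost from RPB1 were both of H3f3b.

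For H3f3a the difference from WT was 0.39 in RPB1, 2.13 in RPB2, 0.84 in RPB5, 1.77 in RPB6, 1.18 in RPB8, 0.38 in RPB9, 0.57 in RPB10 and 0.43 in RPB11. Against RPB1 it was 1.74 in RPB2 and 1.38 in RPB6. H3f3b differed from WT by 0.63 in RPB1, 0.36 in RPB2, 0.56 in RPB3, 1.05 in RPB5, 0.85 in RPB6, 1.10 in RPB8, 0.61 in RPB9, 1.30 in RPB10, 1.06 in RPB11 and 0.43 in RPB12. Against RPB1 it differed by −0.27 in RPB2 and 0.22 in RPB6.

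H2afz differed from WT by −0.73 in RPB1, 0.89 in RPB2, −0.77 in RPB3, 0.96 in RPB6 and −0.78 in RPB7, and from RPB1 by 1.63 in RPB2 and 1.70 in RPB6. H2afv differed from WT by 1.72 in RPB2, 1.55 in RPB6 and 1.08 in RPB8, and from RPB1 by 1.52 in RPB2 and 1.35 in RPB6.

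For H2afx the difference from WT was 1.12 in RPB2, 0.43 in RPB3, 1.05 in RPB6, 0.55 in RPB7, 0.43 in RPB8, 0.63 in RPB9 and −1.16 in RPB10. Against RPB1 it was 0.98 in RPB2 and 0.90 in RPB6. H2afy differed from WT by −0.59 in RPB1, 1.52 in RPB2, −0.42 in RPB3, 0.99 in RPB6 and −0.41 in RPB10, and from RPB1 by 2.11 in RPB2 and 1.57 in RPB6.

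H1f0 differed from WT by 0.83 in RPB1, −2.49 in RPB2, 1.86 in RPB3, −0.60 in RPB5, −2.11 in RPB6, −0.46 in RPB8, 1.96 in RPB9, 3.10 in RPB10 and 1.71 in RPB11. Against RPB1 it differed by −3.32 in RPB2 and −2.94 in RPB6.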

How the results depend on the processing

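Counts of called changes moved by over 1.5 times mainly with the mitochondrial scale. On it 31 of 84 changes were called at 12 h (7 higher), against 47 (29 higher), 0 in WT, 23 beyond WT (7 higher), 4 of 14 against RPB1 (0 higher), 2 at 1 h (2 higher), 19 in untreated lines (19 higher, 0 lower), 3 lower at 0 h between lines and 59 of replication-dependent histones, against 111. At a threshold of 0.01, 3 changes were called at 1 h, and on total counts 4 untreated differences were lower. With a replicate left out, 36 to 51 changes were called at 12 h, 0 to 3 in WT (lower ones also 0 to 3), 2 to 9 at 1 h (higher ones also 2 to 9), 7 to 12 lower beyond WT, 1 to 2 untreated differences lower, and 8 to 17 at 0 h between lines (4 to 10 higher), a comparison added after seeing the data. Without exon length the shares in untreated WT were 17.2% for H3f3a, 30.1% for H3f3b, 22.5% for H2afz, 5.48% for H2afv, 13.7% for H2afx, 9.1% for H2afy and 1.85% for H1f0. The cause of each change was not tested.

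The log2 changes that reversed on the mitochondrial scale follow. At 12 h, H3f3a had −0.36 in RPB2, 0.52 in RPB3, −0.47 in RPB6 and −0.62 in RPB8. H3f3b had −0.39 in RPB1, −1.56 in RPB6 and −0.86 in RPB8. H2afz had −1.41 in RPB2, −1.09 in RPB6 and −1.41 in RPB8, and H2afv −0.52 in RPB2, 0.87 in RPB3, −0.47 in RPB6 and −0.49 in RPB8. H2afx had −1.69 in RPB2, 0.71 in RPB3 and −1.52 in RPB6, and H2afy −0.59 in RPB2, 0.54 in RPB3, −0.89 in RPB6, −0.08 in RPB7 and −1.26 in RPB8. The values for RPB3 rest on 1 IAA library with 0.534% mitochondrial mRNA, against 1.72% in the other. Minus WT, H3f3a had −0.09 in RPB1, −0.10 in RPB6 and −0.24 in RPB8, H3f3b −1.77 in RPB2, −1.02 in RPB6 and −0.32 in RPB8, and H2afz −1.23 in RPB2, 0.16 in RPB3, −0.91 in RPB6 and −1.22 in RPB8. H2afv had −0.37 in RPB2, 1.01 in RPB3, −0.32 in RPB6 and −0.34 in RPB8, H2afx −0.99 in RPB2, −0.83 in RPB6 and −1.0 in RPB8, and H2afy −0.60 in RPB2, 0.54 in RPB3, −0.89 in RPB6 and −1.27 in RPB8. Minus RPB1, H2afz had −0.02, H2afv −0.11 and H2afx −0.65 in RPB2, and H3f3a −0.01, H3f3b −1.17, H2afv −0.06 and H2afx −0.49 in RPB6. Untreated against WT, H3f3a had −0.18 and H2afx −0.04 in RPB4, and H3f3b 0.09 in RPB10.

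On total counts, H3f3b reversed to −0.22 in RPB6, −0.52 in RPB2 minus WT and −0.60 in RPB6 minus RPB1, H2afz to −0.06 in RPB2, and H2afx to −0.33 in RPB2, −0.18 in RPB6 and −0.07 in RPB2 minus RPB1. Without untreated replicate 2, H2afz in RPB5 was 0.21. No called sign reversed under RLE scaling, DESeq2, no filter or each line alone. Whether a change was called stayed as it was for 307 of 315 values under RLE scaling, 305 under DESeq2, 296 without a filter and 274 of 294 with each line alone.

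Replicate numbers did not pair the samples (correlation of same-numbered deviations −0.31 to 0.18, median −0.01, over 16 comparisons). With the replicate block, 46 changes were called at 12 h, 2 in WT, 45 beyond WT, 13 against RPB1, 8 at 1 h, 56 in untreated lines and 15 at 0 h, and no sign reversed.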

Other observations

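Over the 13 lines, the changes at 12 h of H3f3a and H2afv were alike (r = 0.96), those of H3f3a and H3f3b were not (r = 0.28), and those of H2afy and H1f0 ran opposite (r = −0.82). All are descriptions over 13 lines that share a TMM scale. Among 7682 genes of at least 20 CPM, Sec61g (0.990), Becn1 (0.990) and Rpl37a (0.988) had changes most like H3f3a, Ipo4 (0.990), Ap2m1 (0.987) and Rps15a (0.984) most like H2afv, and Slc6a8 (0.821), Ift27 (0.819) and Rnf11 (0.791) most like H3f3b. Fsd1 (0.975), Trim28 (0.969) and Thoc7 (0.968) came closest to H2afz, and Rbms2 (0.982), Ergic1 (0.973) and Capn1 (0.972) to H2afy. H2afx was matched most closely by Exoc4 (0.954), Snd1 (0.945) and Bcas3 (0.940), which fell in RPB10 by 2.51, 2.57 and 2.34 on the log2 scale. H1f0 was matched by Spats1 (0.961), Sptlc1 (0.931) and Gen1 (0.930), with −0.86, −0.94 and −2.48 in RPB2.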
